A study of Homo sapiens with 9 samples.

Results

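The genes described here are 10 partners and regulators of the kinase mTOR: RPTOR, RICTOR, MLST8, AKT1S1, DEPTOR, TSC1, TSC2, RHEB, EIF4EBP1 and DDIT4. They were taken by symbol from the 61806 Ensembl gene identifiers of 1 deposited table of raw read counts, and MTOR itself was kept out of the set. All 10 were found, and all 10 passed the filter on low counts that left 20868 genes for testing. The cells were HCT116, an established line from a human colorectal carcinoma. 3 libraries each were made after lipid transfection (Lipofectamine RNAiMax) of a control siRNA, of siRNA 1 or of siRNA 2. Both of these siRNAs target EXOSC10-AS1, a lncRNA gene antisense to EXOSC10. All 9 libraries carry the same batch entry, day 3, all cells were grown in the same McCOY's 5A medium with serum, and no label says whether replicate libraries stem from separate transfections. The p values below may therefore measure the spread of technical repeats only.

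mTOR is a protein kinase that couples cell growth to growth factors, amino acids, energy and stress. It works in 1 complex built around Raptor (encoded by RPTOR), mTORC1, and in another built around Rictor, mTORC2, and MLST8 is a subunit of both. PRAS40 (encoded by AKT1S1) binds mTORC1 and inhibits it, and DEPTOR binds and inhibits both complexes. The small GTPase RHEB switches mTORC1 on at the lysosome, and the TSC1-TSC2 complex switches RHEB off. 4E-BP1 (encoded by EIF4EBP1) is a repressor of cap-dependent translation that mTORC1 inactivates by phosphorylation. REDD1 (encoded by DDIT4) is made under hypoxia and other stress and restrains mTORC1 through the TSC complex. Much of this control acts on proteins, which RNA counts do not measure.

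Depth ranged from 56.8 to 66.5 M counts per library, and in such bulk RNA fewer cells of a type and less RNA per cell cannot be told apart. The counts of EXOSC10-AS1 were 26, 4 and 14 in control replicates 1 to 3, 4, 0 and 0 with siRNA 1, and 5, 13 and 0 with siRNA 2, and its loss was not called (edgeR, adjusted p = 0.19 and 0.55). In 3 libraries the counts followed the GC content of the transcripts. Against the control mean, the median of the 10% of genes lowest in GC and that of the 10% highest were -0.69 and 0.24 log2 units in siRNA 1 replicate 1. They were 0.21 and -0.51 in siRNA 2 replicate 2, and 0.21 and -0.50 in siRNA 2 replicate 3. In the other siRNA libraries these medians lay between -0.07 and 0.06. Results are given as counted and, where stated, with the GC trend of each library removed, and the counts of calls also without these 3 libraries, an alternative chosen after seeing the data. Of 10 epithelial markers, 9 were above 1 CPM (counts scaled to a common library size) in every library, and VIL1 was at most 0.0882 CPM. The summed epithelial level was 5290 to 5400 CPM in control, 4510 to 5320 with siRNA 1 and 3850 to 4580 with siRNA 2. KRT8 and KRT19 made up most of this sum, and with siRNA 1 the means of EPCAM (206 against 162 CPM in control), CDH1 (103 against 83.7) and CLDN7 (172 against 106), and that of CDX2, lay above control. Of 9 leukocyte markers none reached 1 CPM in every library, 3 (PTPRC, CD3E and MS4A1) were at 0 throughout, and their sum was at most 3.10 CPM. Of 8 fibroblast markers only COL1A1 was above 1 CPM, and the sum was 59.5 to 61.4 CPM in control, 46.9 to 52.4 with siRNA 1 and 36.1 to 40.3 with siRNA 2. The part of these marker shifts in the results below was not tested.

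In the control libraries the 10 RNAs covered a wide range of levels. Levels between genes were compared as CPM per kb of the mean length of a gene's protein-coding transcripts, with SD over 3 libraries. DDIT4 was highest at 238 ± 1.30 CPM per kb. RHEB followed at 57.9 ± 3.04 CPM per kb and EIF4EBP1 at 53.9 ± 3.47 CPM per kb, and the libraries of these neighbours in the order overlapped. AKT1S1 had 25.6 ± 1.43 CPM per kb and RPTOR 22.9 ± 1.06 CPM per kb, which also overlapped. MLST8 followed at 20.6 ± 1.04, TSC2 at 14.8 ± 0.446, TSC1 at 11.6 ± 0.560 and RICTOR at 6.10 ± 0.123 CPM per kb, each apart from the next. DEPTOR was lowest at 1.90 ± 0.247 CPM per kb. With the longest transcript as the length, EIF4EBP1 (53.9 CPM per kb) stood above RHEB (34.6), and MLST8 (17.2), RPTOR (17.2) and AKT1S1 (16.7) overlapped with MLST8 first. DDIT4 stayed first and TSC2, TSC1, RICTOR and DEPTOR stayed last in that order.

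**Figure D1:**
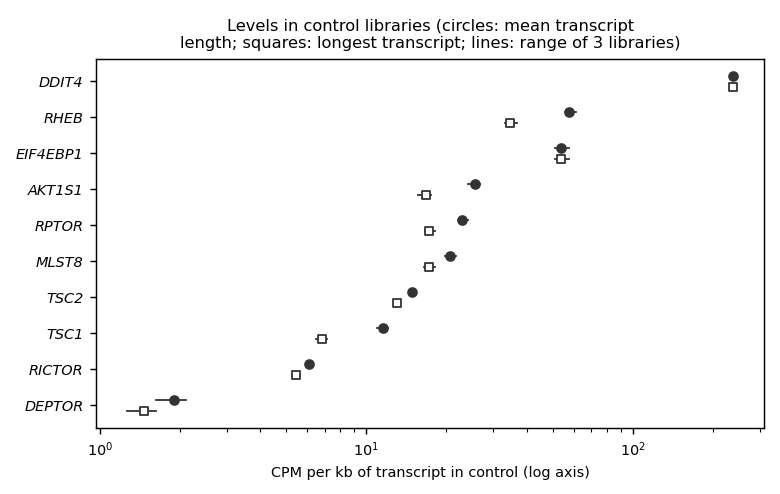
Control levels of the 10 genes in CPM per kb of transcript on a log axis, as means of 3 libraries with the range as a line; circles use the mean transcript length and squares the longest transcript. DDIT4 at 238 and DEPTOR at 1.90 CPM per kb mark the ends, and the order of RHEB and EIF4EBP1 depends on the length used.

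The comparisons of each siRNA with control ask what follows the targeting of EXOSC10-AS1, and they share the same controls. The comparison of the siRNAs with each other asks whether their effects differ. Adjusted p values are from edgeR's quasi-likelihood test with Benjamini-Hochberg adjustment over the genes tested. Genes with an adjusted p under 0.05 are named as called, and log2 fold changes are given ± their standard error. With siRNA 1, 0 of 10 members were called by edgeR, beside 7.08% of all tested genes. 5 members had an unadjusted p under 0.05, as had 4912 of the 20868 genes. DESeq2 called 4 members, beside 14.1% of all genes, and limma-voom 0, beside 7.58%. With the GC trend removed, 7 of 10 were called, beside 19.6% of all genes: MLST8, DEPTOR and EIF4EBP1 higher, and RPTOR, RICTOR, TSC1 and TSC2 lower. Without the 3 libraries that carried the trend, 7 were called as well, beside 23.5% of all genes: DEPTOR and EIF4EBP1 higher, and RPTOR, RICTOR, TSC1, TSC2 and DDIT4 lower. In 7 of 10 members the siRNA 1 libraries did not overlap control as counted, beside 34.7% of all genes. With siRNA 2, EIF4EBP1 and DDIT4 fell, 2 of 10 beside 13.8% of all genes in either direction and 7.61% lower. RHEB joined them once the GC trend was removed, which made 3 of 10 lower, beside 21.1% of all genes in either direction and 9.86% lower. Without the 3 libraries, which leaves siRNA 2 with 1 library that is assumed to vary like the others, 5 were called lower, beside 16.5% of all genes in either direction and 8% lower: RPTOR, RICTOR, RHEB, EIF4EBP1 and DDIT4. As counted, RPTOR, AKT1S1, RHEB, EIF4EBP1 and DDIT4 had all siRNA 2 libraries below all controls, 5 of 10 beside 39.9% of all genes without overlap in either direction and 20.2% lower.

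Between the siRNAs, 5 of 10 members differed, beside 22.4% of all genes, and 6 did not overlap, beside 38.6% of all genes. MLST8, AKT1S1, EIF4EBP1 and DDIT4 were lower with siRNA 2 than with siRNA 1, and TSC1 was higher. Removal of the GC trend again left 5 called, beside 27% of all genes. TSC1, EIF4EBP1 and DDIT4 were among them in the same directions, RPTOR and TSC2 were called higher with siRNA 2, and MLST8 and AKT1S1 were not called. Without the 3 libraries 6 were called, beside 16.4% of all genes: TSC1 and TSC2 higher, and AKT1S1, RHEB, EIF4EBP1 and DDIT4 lower. For the average of both siRNAs against control, 0 of 10 were called by edgeR, beside 7.37% of all genes. 5 had an unadjusted p under 0.05, as had 4645 of the 20868 genes. DESeq2 called 1 (DEPTOR), beside 13% of all genes, and limma-voom 0, beside 7.95%. After removal of the GC trend 5 were called lower, beside 17.7% of all genes in either direction and 8.44% lower: RPTOR, RICTOR, TSC2, RHEB and DDIT4. Without the 3 libraries 7 were called, beside 21.2% of all genes. The median log2 fold change of the 10 was -0.06 with siRNA 1, -0.23 with siRNA 2 and -0.16 between the siRNAs, beside -0.02, -0.01 and 0.00 over all tested genes.

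**Figure D2:**
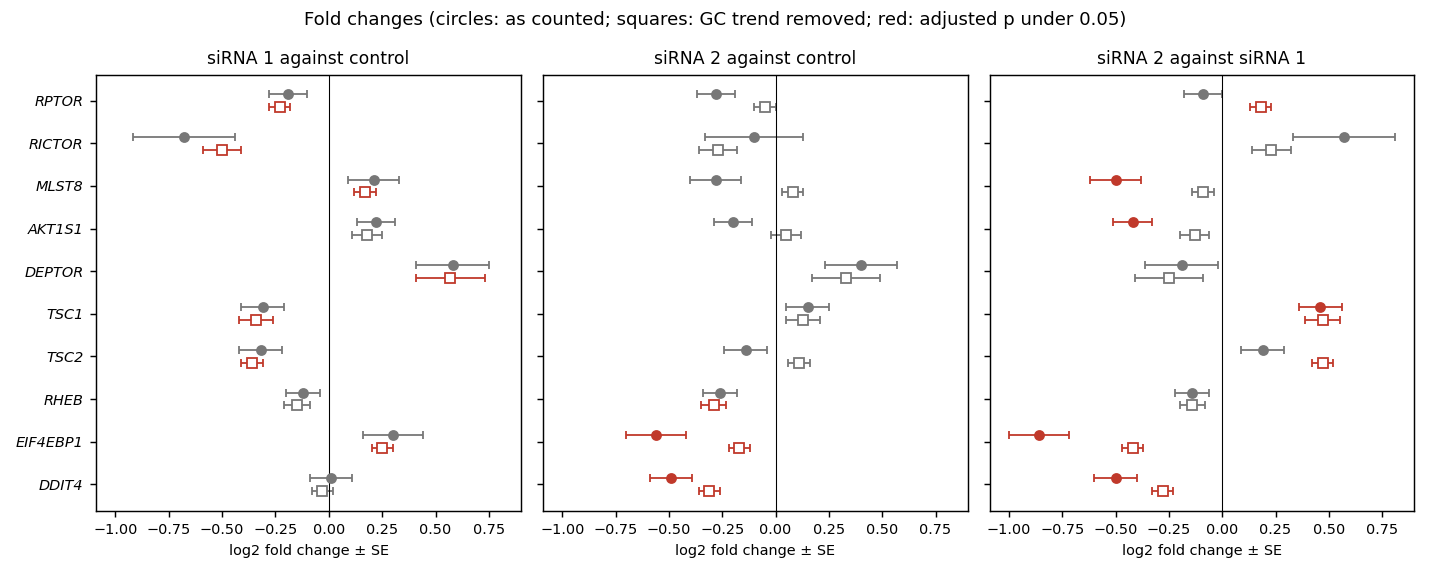
Log2 fold changes of the 10 genes with standard errors as bars, in 3 panels for siRNA 1 against control, siRNA 2 against control and siRNA 2 against siRNA 1; circles are as counted, squares have the GC trend removed, and red marks an adjusted p under 0.05. DDIT4 and EIF4EBP1 are red in both forms in both panels that involve siRNA 2, and 0 members are red as counted with siRNA 1 against 7 with the trend removed.

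The scaffold genes of the complexes, RPTOR and RICTOR, were not called as counted with either siRNA, and both were called lower with siRNA 1 once the GC trend was removed. RPTOR (ENSG00000141564) had 106.4, 107.9 and 115.9 CPM in control, 110.0, 88.7 and 90.3 CPM with siRNA 1, and 96.6, 85.3 and 89.96 CPM with siRNA 2. All siRNA 2 libraries were thus below all controls, and siRNA 1 replicate 1 lay inside the control range. Its log2 fold change was -0.19 ± 0.09 for siRNA 1 (adjusted p = 0.25), and for siRNA 2 -0.28 ± 0.09 (adjusted p = 0.077). With the GC trend removed it was -0.23 ± 0.05 for siRNA 1 (adjusted p = 0.0091), -0.05 for siRNA 2 (adjusted p = 0.54), and 0.18 ± 0.05 between the siRNAs (adjusted p = 0.023) in place of -0.09 as counted. Without siRNA 1 replicate 1 alone, the change with siRNA 1 was -0.29 (adjusted p = 0.018).

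RICTOR (ENSG00000164327) had 53.2, 51.6 and 51.2 CPM in control and 18.7, 40.0 and 38.9 CPM with siRNA 1. With siRNA 2 it had 40.7, 51.4 and 53.2 CPM. Every siRNA 1 library was below every control, and the value of siRNA 1 replicate 1 was less than those of its replicates by a wide margin, so that the SD in that group was 12.0 CPM against 1.05 CPM in control. The transcript of RICTOR is low in GC, at 36.5%, a percentile of 3.74 among the genes used for the trend. The log2 fold change with siRNA 1 was -0.68 ± 0.24 (adjusted p = 0.11) as counted and -0.50 ± 0.09 (adjusted p = 0.0039) with the trend removed. The corrected siRNA 1 values were 30.3, 39.0 and 38.5 CPM, against 50.4 to 52.0 CPM in control, and without siRNA 1 replicate 1 the fold change was -0.39 (adjusted p = 0.038). For siRNA 2 the value was -0.10 ± 0.23 (adjusted p = 0.82) as counted, and -0.27 (adjusted p = 0.065) after removal of the trend. The difference between the siRNAs was 0.57 ± 0.24 (adjusted p = 0.11) as counted, 0.23 (adjusted p = 0.090) with the trend removed and 0.04 (adjusted p = 0.71) without the 3 libraries.

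MLST8 (ENSG00000167965), the subunit that both complexes share, had 34.8, 38.4 and 35.9 CPM in control. It had 46.5, 39.8 and 40.4 CPM with siRNA 1, and 35.5, 27.2 and 27.1 CPM with siRNA 2. All siRNA 1 libraries were above the controls, and 2 of the 3 siRNA 2 libraries were below them. Against control the log2 fold change was 0.21 ± 0.12 for siRNA 1 (adjusted p = 0.30; 0.17 and 0.044 with the trend removed). For siRNA 2 it was -0.28 ± 0.12 (adjusted p = 0.14; 0.08 and 0.33 with the trend removed). MLST8 was lower with siRNA 2 than with siRNA 1 by -0.50 ± 0.12 (adjusted p = 0.015), a call lost without siRNA 2 replicate 2 or 3, with adjusted p up to 0.069. In those fits 9.87% and 10.2% of all genes were called, against 22.4% in the full fit. The transcript of MLST8 has a GC content of 64.5%. With the trend removed the siRNA 2 libraries stood at 34.9 to 36.0 CPM and the difference between the siRNAs was -0.09 (adjusted p = 0.25).

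The genes of the inhibitors PRAS40 and DEPTOR did not pass the test against control as counted. AKT1S1 (ENSG00000204673) had 61.7, 57.0 and 63.6 CPM in control, 78.6, 65.4 and 68.6 CPM with siRNA 1, and 54.9, 54.9 and 49.4 CPM with siRNA 2. The 3 groups did not overlap, with siRNA 1 above control and siRNA 2 below it. Against control the log2 fold change was 0.22 ± 0.09 (adjusted p = 0.16) with siRNA 1 and -0.20 ± 0.09 (adjusted p = 0.18) with siRNA 2. Between the siRNAs it was -0.42 ± 0.09 (adjusted p = 0.0098), a call lost without siRNA 2 replicate 3 (adjusted p = 0.050). In that fit 10.2% of all genes were called, against 22.4% in the full fit. With the trend removed the difference between the siRNAs was -0.13 (adjusted p = 0.18), siRNA 2 against control was 0.05 (adjusted p = 0.67), and siRNA 1 against control was 0.18 (adjusted p = 0.082). AKT1S1 shares 6.83% of its exon bases with TBC1D17 on the opposite strand, so a small part of its counts is uncertain. DEPTOR (ENSG00000155792) was the scarcest member, with 183 to 251 counts per control library. Its levels were 4.19, 3.23 and 3.88 CPM in control, 5.14, 5.88 and 5.92 CPM with siRNA 1, and 5.80, 4.12 and 4.94 CPM with siRNA 2. All siRNA 1 libraries were above control, and siRNA 2 replicate 2 lay inside the control range. Its log2 fold change was 0.58 ± 0.17 for siRNA 1 (adjusted p = 0.065), and 0.40 ± 0.17 for siRNA 2 (adjusted p = 0.15). With the trend removed it was 0.57 ± 0.16 (adjusted p = 0.033) and 0.33 (adjusted p = 0.20), so for siRNA 1 the value hardly moved and the call was gained. A lincRNA gene on the opposite strand shares 9.61% of the exon bases of DEPTOR and had 37 counts over the 9 libraries.

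**Figure D3:**
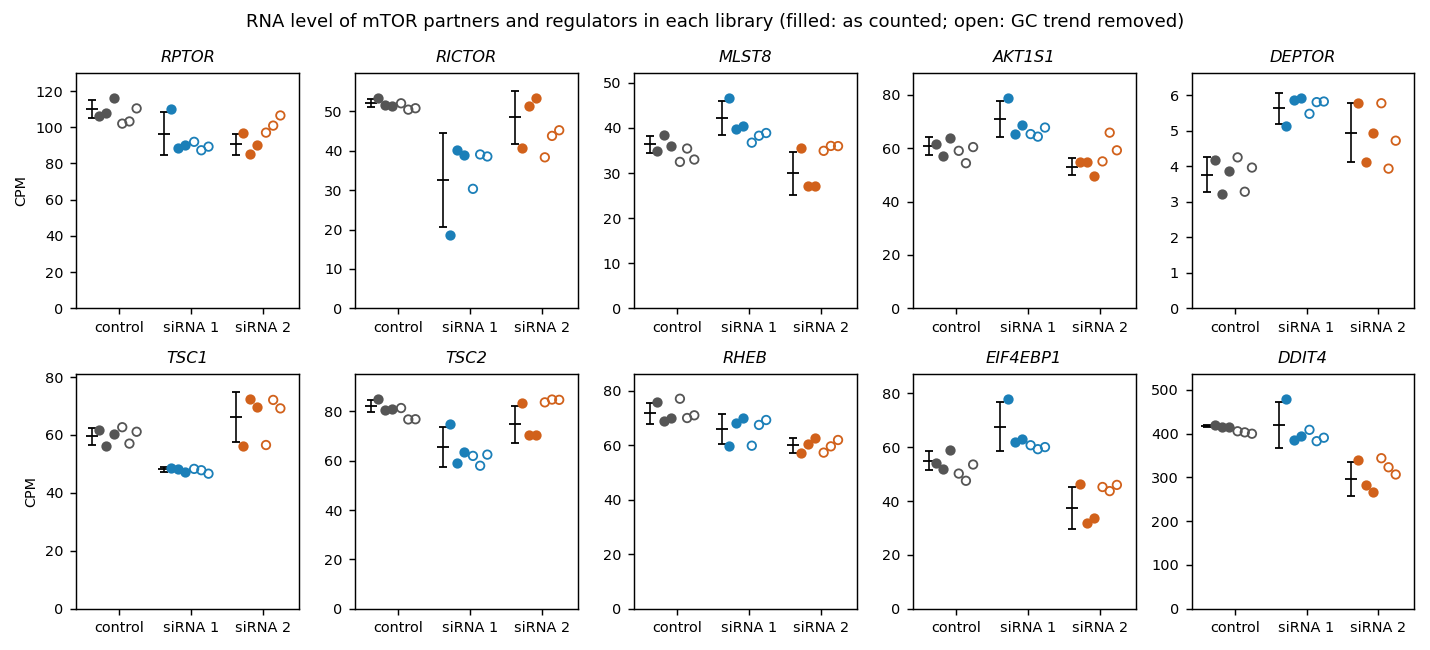
CPM of the 10 genes in every library, in 1 panel each with an axis from 0; filled points are as counted, open points have the GC trend removed, and the bar to the left is the mean with SD over 3 libraries as counted. EIF4EBP1 and DDIT4 are lower in all siRNA 2 libraries than in control, and RICTOR in siRNA 1 replicate 1 stands apart at 18.7 CPM.

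In the RHEB switch, TSC1 differed between the siRNAs. TSC1 (ENSG00000165699), which encodes hamartin, the stabilising partner of the complex, had 61.9, 56.3 and 60.3 CPM in control. It had 48.7, 48.4 and 47.2 CPM with siRNA 1, the tightest group with an SD of 0.824 CPM, and 56.4, 72.5 and 69.5 CPM with siRNA 2. All siRNA 1 libraries were below all controls, while siRNA 2 replicate 1 was level with the lowest control and its replicates were above. TSC1 was higher with siRNA 2 than with siRNA 1 by 0.46 ± 0.10 (adjusted p = 0.0091), and by 0.47 (adjusted p = 0.0017) with the trend removed. This call was kept without each of the 9 libraries in turn, with adjusted p up to 0.045. Without the 3 libraries with a trend the difference was smaller, at 0.23 (adjusted p = 0.032), and the value for siRNA 2 against control was -0.08 (adjusted p = 0.46). Against control the change was -0.31 ± 0.10 for siRNA 1 (adjusted p = 0.082; 0.014 with the trend removed), and 0.15 ± 0.10 for siRNA 2 (adjusted p = 0.34; 0.13 and 0.30 with the trend removed). The GC content of its transcript, 48.5%, is near the middle of all genes, and the trend shifted TSC1 by at most 0.02 log2 units in any library.

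TSC2 (ENSG00000103197), which encodes tuberin, the subunit that acts on RHEB as a GTPase-activating protein, had 85.2, 80.7 and 81.1 CPM in control. It had 74.8, 59.1 and 63.4 CPM with siRNA 1, and 83.6, 70.6 and 70.5 CPM with siRNA 2. All siRNA 1 libraries were below control, and the siRNA 2 group overlapped it. As counted, the log2 fold change was -0.32 ± 0.10 with siRNA 1 (adjusted p = 0.085) and 0.19 ± 0.10 between the siRNAs (adjusted p = 0.21). With the trend removed it was -0.36 ± 0.05 (adjusted p = 0.00040) and 0.47 (adjusted p = 4.9e-05). The corrected levels were 76.8 to 81.4 CPM in control, 58.0 to 62.5 CPM with siRNA 1 and 83.7 to 84.8 CPM with siRNA 2, with no overlap between the 3 groups. For siRNA 2 against control the change was not called: -0.14 ± 0.10 as counted (adjusted p = 0.43) and 0.11 with the trend removed (adjusted p = 0.13). Without the 3 libraries with a trend it was 0.02. TSC2 overlaps PKD1 over 3.96% and NTHL1 over 2.05% of its exon bases, both on the opposite strand, so a small part of its counts is uncertain.

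The promoters of this pair are shown because TSC1 and TSC2 were both called lower with siRNA 1 than in control and than with siRNA 2 once the trend was removed. Neither was called with siRNA 2 against control in that form. TSC1 in siRNA 2 replicate 1 then stood at 56.5 CPM, below the controls at 57.0 to 62.7 CPM. RefSeq (GRCh38.p14) places the 250 bases before the start of TSC1 at chr9:132944617-132944866 on the minus strand, and those before the first of 2 listed TSC2 starts at chr16:2047735-2047984 on the plus strand. Capitals mark matches to ACGTG (1 form of the core of a hypoxia response element), CACGTG (an E-box) or TGATGNAA (a C/EBP-ATF response element), searched on both strands. The core form GCGTG was not searched.
TSC1 promoter: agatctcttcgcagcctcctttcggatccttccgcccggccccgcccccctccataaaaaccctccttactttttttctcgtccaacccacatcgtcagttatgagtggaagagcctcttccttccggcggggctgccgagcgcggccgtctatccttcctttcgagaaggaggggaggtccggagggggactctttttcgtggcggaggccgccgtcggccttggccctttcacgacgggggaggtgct
TSC2 promoter: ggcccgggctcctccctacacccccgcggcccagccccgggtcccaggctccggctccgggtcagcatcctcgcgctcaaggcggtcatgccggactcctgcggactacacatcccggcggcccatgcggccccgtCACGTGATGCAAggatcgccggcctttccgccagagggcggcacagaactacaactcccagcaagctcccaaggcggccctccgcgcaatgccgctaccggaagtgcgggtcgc
The TSC1 window held none of the 3 motifs, nor did the window of the other listed TSC2 start. In the TSC2 window an E-box lay 114 to 109 bases before the start, contained ACGTG on both strands and ran into a TGATGNAA match at 110 to 103 bases. Among 35116 RefSeq windows of the same length, 18.5% held ACGTG, 6.34% CACGTG and 3.14% TGATGNAA. A match describes these letters only.

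RHEB (ENSG00000106615), the GTPase itself, had 76.1, 69.1 and 70.03 CPM in control, 59.6, 68.3 and 70.2 CPM with siRNA 1, and 57.2, 60.4 and 62.7 CPM with siRNA 2. All siRNA 2 libraries were below control, and the siRNA 1 group overlapped it. The log2 fold change with siRNA 2 was -0.26 ± 0.08 (adjusted p = 0.069), and -0.29 (adjusted p = 0.0095) with the trend removed. With siRNA 1 it was -0.12 ± 0.08 (adjusted p = 0.43), and -0.15 (adjusted p = 0.13) with the trend removed. The genome holds processed copies of RHEB, and reads may have been split among them: over the 9 libraries RHEBP2 had 8145 counts, 22.2% of the RHEB count, and RHEBP1 had 2688, 7.33%. RHEBP2 had a log2 change of -0.27 ± 0.12 with siRNA 2 (adjusted p = 0.18), and RHEBP1 one of 0.02 ± 0.16 (adjusted p = 0.94).

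The substrate gene EIF4EBP1 had, as counted, the largest difference between the siRNAs among the 10, whereas with the trend removed those of TSC1 and TSC2 (0.47 each) were larger in size. EIF4EBP1 (ENSG00000187840) had 54.2, 51.9 and 58.9 CPM in control, 78.0, 62.0 and 62.95 CPM with siRNA 1, and 46.3, 32.01 and 33.7 CPM with siRNA 2. The 3 groups did not overlap, with siRNA 1 highest and siRNA 2 lowest. With siRNA 2 it fell by 0.56 on the log2 scale (-0.56 ± 0.14, adjusted p = 0.030), and with siRNA 1 the change was 0.30 ± 0.14 (adjusted p = 0.24). Between the siRNAs it was -0.86 ± 0.14 (adjusted p = 0.0035), kept without each library in turn with adjusted p up to 0.021. The call against control was lost without any 1 control library or siRNA 2 replicate 2 or 3, with adjusted p up to 0.12, and without the filter on low counts (adjusted p = 0.058). Over all genes the share called with siRNA 2 also fell, from 13.8% to between 4.98% and 5.1% without 1 of these libraries. Without the filter it was 5.63%. At 65.5% GC EIF4EBP1 is the member richest in GC. With the trend removed its change was -0.17 with siRNA 2 (adjusted p = 0.044), 0.25 with siRNA 1 (adjusted p = 0.0066) and -0.42 between the siRNAs (adjusted p = 0.00023). The corrected levels, 47.5 to 53.6 CPM in control, 59.3 to 60.8 CPM with siRNA 1 and 43.7 to 46.0 CPM with siRNA 2, kept the groups apart in the same order. In siRNA 2 replicate 1, where the GC trend was small, the level of 46.3 CPM as counted was also below every control.

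The stress-induced inhibitor gene DDIT4 was lower with siRNA 2 and close to control with siRNA 1. DDIT4 (ENSG00000168209) had 419.3, 416.2 and 414.8 CPM in control, an SD of 2.27 CPM. It had 479.6, 386.2 and 394.1 CPM with siRNA 1, where replicate 1 lay above and its replicates below control. It had 340.4, 282.3 and 267.3 CPM with siRNA 2, all below every library of the other groups. DDIT4 fell with siRNA 2 by 0.49 on the log2 scale (-0.49 ± 0.10, adjusted p = 0.014), to 0.712 of the control level. The change was 0.01 ± 0.10 with siRNA 1 (adjusted p = 0.97) and -0.50 ± 0.10 between the siRNAs (adjusted p = 0.0091). With the trend removed these were -0.31 (adjusted p = 0.0012), -0.03 (adjusted p = 0.72) and -0.28 (adjusted p = 0.0018). The direction with siRNA 1 thus turned, and without the 3 libraries with a trend it was -0.09 (adjusted p = 0.020). DDIT4-AS1, on the opposite strand, shares 41.16% of the exon bases of DDIT4, and reads from the pair could not be told apart unless the counting used strand, which the labels leave unstated. The call with siRNA 2 was lost without any 1 control library or siRNA 2 replicate 2 or 3, with adjusted p up to 0.069, and the call between the siRNAs was kept without each library in turn. In the fits that lost the call with siRNA 2, 4.98% to 5.1% of all genes were called, against 13.8% in the full fit.

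The DDIT4 promoter is shown because DDIT4 is a known target of hypoxia-inducible factors and fell with siRNA 2. RefSeq (GRCh38.p14) places the 250 bases before its start at chr10:72273674-72273923 on the plus strand, and capitals mark matches to the same 3 motifs.
DDIT4 promoter: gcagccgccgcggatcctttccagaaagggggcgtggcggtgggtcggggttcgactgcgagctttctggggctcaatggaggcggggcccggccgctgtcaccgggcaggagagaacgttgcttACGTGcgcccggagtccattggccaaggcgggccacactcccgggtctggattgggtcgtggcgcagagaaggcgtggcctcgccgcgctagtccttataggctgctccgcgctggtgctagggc
ACGTG was found once, 125 to 121 bases before the start, and 18.5% of all windows hold it. The form GCGTG, which also occurs in this window, was not searched and is not marked. The windows of RICTOR and RHEB and that of TSC2 shown above hold ACGTG too, so that 4 of the 6 members with a window do. CACGTG and TGATGNAA were not in this window.

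The GC trend touched members unequally. In siRNA 1 replicate 1 the trend at the GC content of each gene was -0.70 log2 units for RICTOR and 0.36 for EIF4EBP1, and in siRNA 2 replicate 2 it was 0.23 and -0.45. RICTOR in siRNA 1 replicate 1 stayed below all controls after its removal, at 30.3 CPM, and DEPTOR was above its control mean in all 6 siRNA libraries as counted. Correlations of log2 CPM between members over the 9 libraries also depended on the trend, and they are given as descriptions, since the points share the 3 groups and the library composition. EIF4EBP1 and MLST8, both rich in GC, had a Pearson correlation of 0.965 as counted and 0.448 with the trend removed. For EIF4EBP1 and DDIT4 it was 0.939 and 0.676. TSC1 and TSC2, whose products form 1 complex, had 0.366 as counted and 0.904 with the trend removed. RPTOR and RICTOR, the scaffold genes of separate complexes, had -0.194 and 0.751. MLST8, the subunit of both complexes, had 0.485 and -0.779 with RPTOR, and -0.71 and -0.655 with RICTOR. Shared membership of a complex thus did not go with a positive correlation in every pair. TSC1 and EIF4EBP1 had -0.874 and -0.850, and stood at opposite ends of the siRNAs in both forms.

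**Figure D4:**
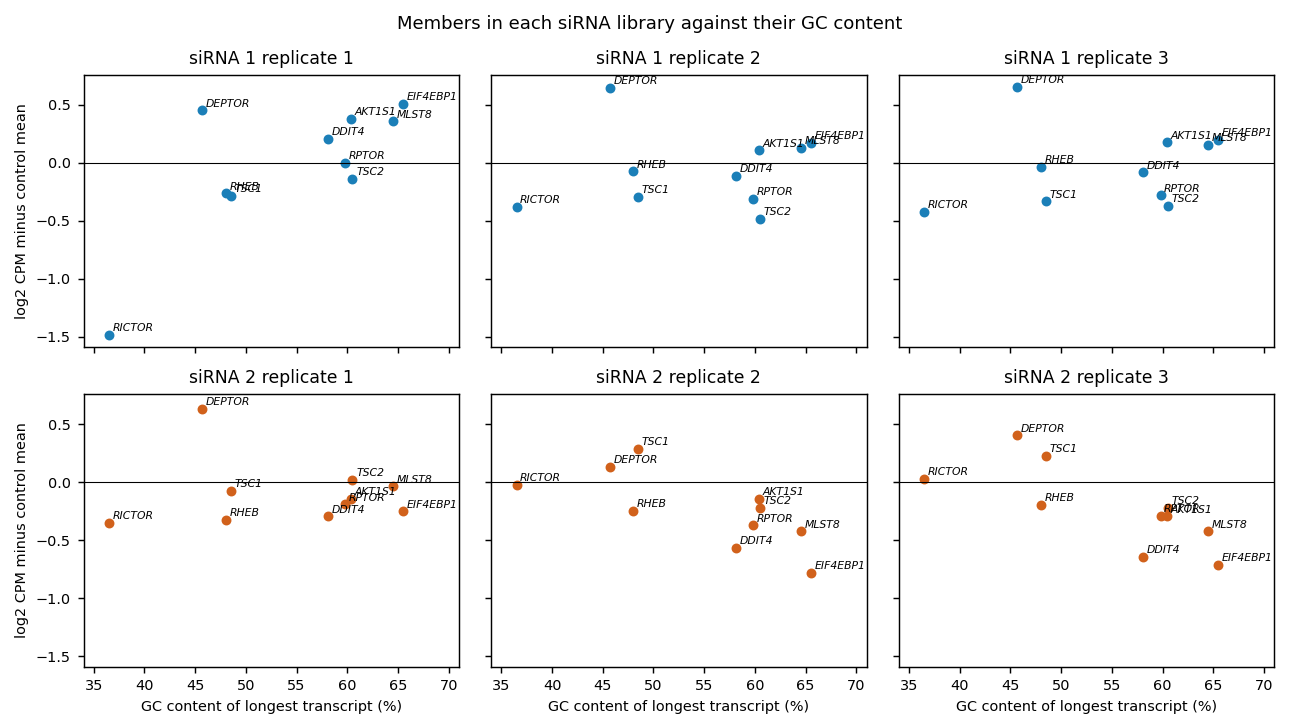
Log2 CPM of each member minus its control mean against the GC content of its longest transcript in percent, in 1 panel per siRNA library. In siRNA 1 replicate 1 RICTOR at 36.5% GC is lowest, and in siRNA 2 replicates 2 and 3 EIF4EBP1 at 65.5% GC is lowest.

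The other genes of the pathway were counted from a list of 87, of which 86 were tested. With siRNA 1, 4 were called higher and 8 lower, 14.0% of those tested beside 7.08% of all genes, and the median log2 fold change was -0.02. With siRNA 2, 8 were higher and 8 lower, 18.6% of those tested beside 13.8% of all genes, and the median was -0.01. Between the siRNAs 19 were higher with siRNA 2 and 14 lower, 38.4% of those tested beside 22.4% of all genes. After removal of the GC trend the counts were 39 with siRNA 1 (16 higher), 30 with siRNA 2 (18 higher) and 40 between them (26 higher), beside 19.6%, 21.1% and 27% of all genes. Of 10 genes of the kinase and its assembly, 3 were higher with siRNA 1 and 2 with siRNA 2, and none was lower, which is 30% and 20% of the branch beside 7.08% and 13.8% of all genes. MTOR itself had 107.4, 100.9 and 100.4 CPM in control and 121.1 to 126.1 CPM with siRNA 1. It had 127.9 to 144.8 CPM with siRNA 2, above all controls in both groups, and was called with both siRNAs (0.27 ± 0.07, adjusted p = 0.046; 0.43 ± 0.07, adjusted p = 0.0042). RUVBL1, an ATPase subunit of the chaperone machinery that assembles such kinases, rose by 0.30 ± 0.07 with siRNA 1 (adjusted p = 0.030). With siRNA 2 RUVBL1 was called higher as well (0.27 ± 0.07, adjusted p = 0.031). TTI1, a partner of TELO2 in the same assembly, rose by 0.35 ± 0.08 with siRNA 1 (adjusted p = 0.027). After correction for the trend, MTOR was at 0.23 for siRNA 1 (adjusted p = 0.031), at 0.48 for siRNA 2 (adjusted p = 0.00049), and RUVBL1 and TTI1 were at 0.25 and 0.31 with siRNA 1 (adjusted p = 0.0038 and 0.0060). As counted, the calls of RUVBL1 and TTI1 with siRNA 1 were lost in 7 and 5 of 9 fits that left out 1 library, with adjusted p up to 0.15 and 0.12. The MTOR call with siRNA 1 was lost in 7 of 9 such fits, with adjusted p up to 0.18, and the one with siRNA 2 was kept in 9 of 9. In the fits that lost these siRNA 1 calls, 2.02% to 5.21% of all genes were called, against 7.08% in the full fit.

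In the amino acid branch, 1 of 31 genes was higher and 4 lower with siRNA 1, and 1 was higher and 5 lower with siRNA 2, which is 16.1% and 19.4% beside 7.08% and 13.8% of all genes. SESN3, a sestrin of the leucine and stress branch, had 12.3 to 13.4 CPM in control. It fell by 0.87 with siRNA 1 (-0.87 ± 0.21, adjusted p = 0.037), to 4.47, 7.73 and 8.91 CPM, and rose by 0.78 ± 0.21 with siRNA 2 (adjusted p = 0.035), to 19.3, 24.1 and 22.8 CPM. Its relative SESN2, a leucine sensor, rose by 0.52 ± 0.12 with siRNA 1 (adjusted p = 0.027). SAMTOR, the S-adenosylmethionine sensor, fell by 1.08 with siRNA 1 (-1.08 ± 0.27, adjusted p = 0.040), and had 6.28 CPM in replicate 1 against 14.99 and 14.7 CPM in its replicates and 21.6 to 27.6 CPM in control. FNIP1, a folliculin partner, fell by 0.75 with siRNA 1 (-0.75 ± 0.16, adjusted p = 0.021), and NPRL2, a subunit of the GATOR1 inhibitor of Rag GTPases, fell by 0.54 with siRNA 2 (-0.54 ± 0.11, adjusted p = 0.012). These 6 calls were kept after removal of the GC trend. Each of them was lost in at least 1 fit that left out a single library, and that of SESN3 with siRNA 2 in 5 of 9, those without any 1 control or siRNA 2 replicate 2 or 3, with adjusted p up to 0.13. The SAMTOR call was lost in 6 of 9, with adjusted p up to 0.13. In the fits that lost the SESN3 call with siRNA 2, 4.98% to 5.1% of all genes were called, against 13.8% in the full fit. In those that lost the SAMTOR call the share with siRNA 1 was 2.02% to 5.21%, against 7.08%.

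In the growth factor and energy branch, 2 of 26 genes were lower with siRNA 1, and 2 were higher and 1 lower with siRNA 2. These are 7.69% and 11.5% of the branch, near the 7.08% and 13.8% of all genes. The insulin receptor substrate genes IRS1 and IRS2 parted with siRNA 2. IRS1 had 63.5, 65.1 and 66.1 CPM in control and 135.0, 127.6 and 127.8 CPM with siRNA 2, a rise of 1.00 ± 0.07 (adjusted p = 6.1e-05). IRS2 had 39.5, 39.9 and 41.7 CPM in control and 26.7, 19.7 and 18.5 CPM with siRNA 2, and fell by 0.90 (-0.90 ± 0.13, adjusted p = 0.0024). PIK3R1, a regulatory subunit gene of PI3-kinase, rose by 0.57 ± 0.15 with siRNA 2 (adjusted p = 0.029). This call was lost in 5 of 9 fits that left out 1 library, with adjusted p up to 0.11. In those fits 4.98% to 5.1% of all genes were called with siRNA 2, against 13.8% in the full fit. Among 19 tested outputs, 2 were lower with siRNA 1, and 3 were higher and 2 lower with siRNA 2, which is 10.5% and 26.3% beside 7.08% and 13.8% of all genes. LPIN1, a phosphatidate phosphatase that mTORC1 controls, had 36.2 to 39.2 CPM in control and 22.5 to 23.5 CPM with siRNA 2, and fell by 0.70 (-0.70 ± 0.08, adjusted p = 0.00064). After correction for the trend, the changes with siRNA 2 were 1.02 for IRS1, -0.71 for IRS2, 0.42 for PIK3R1 and -0.73 for LPIN1, and all were called. The calls of IRS1, IRS2 and LPIN1 were kept under the 9 fits that each left out 1 library and the 10 other alternatives.

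**Figure D5:**
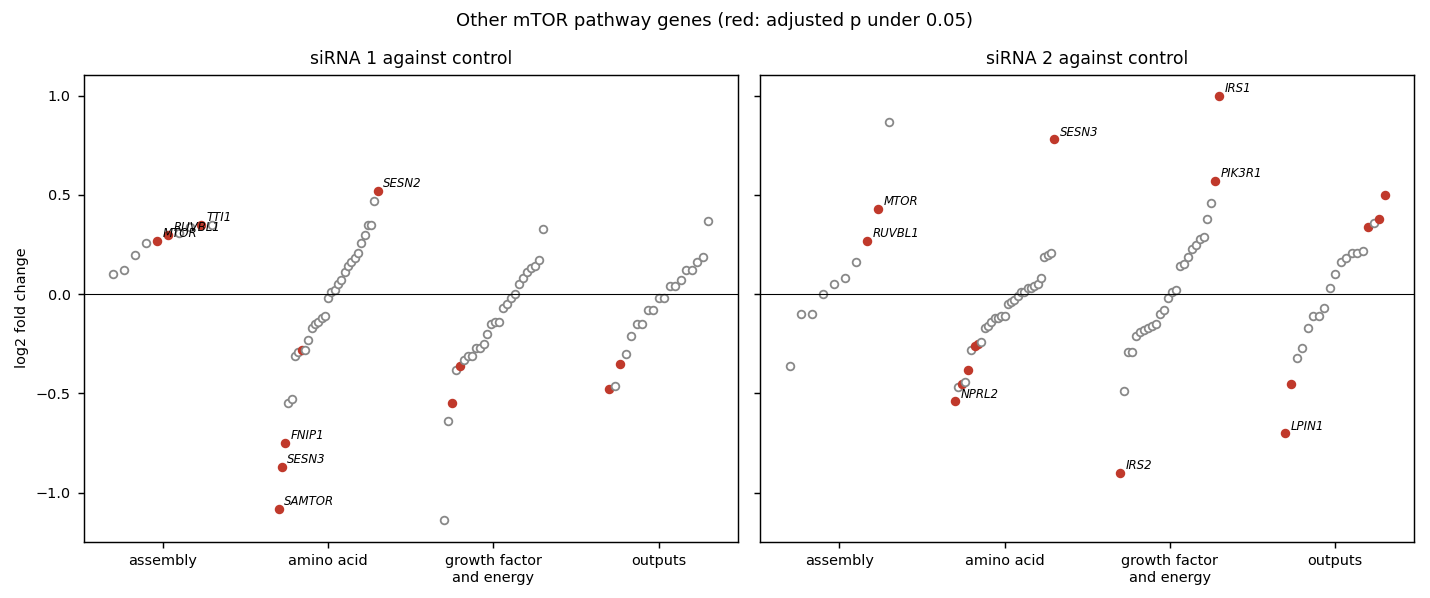
Log2 fold changes of 86 other mTOR pathway genes with siRNA 1 (left) and siRNA 2 (right) against control, sorted within each branch; red marks an adjusted p under 0.05, and the genes named in the text are labelled where called. IRS1 at 1.00 and IRS2 at -0.90 lie at the ends of their branch with siRNA 2, and SAMTOR at -1.08 is the lowest called gene with siRNA 1.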

How the data were processed

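Per the labels, total RNA was isolated with Trizol and sequenced from Illumina libraries. The authors deposited raw counts per Ensembl gene identifier, with hg19 as build per the submitters' processing notes. For aligner, counting tool, annotation and strand the sources used here give no entry. Symbols came from a table of Ensembl identifiers (61757 of 61806 matched), and GC content, length and exon overlap from GENCODE transcripts on a newer build, which was used for no coordinates of the counts.

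Testing used the quasi-likelihood method of edgeR 4.0.16 (R 4.3.3) with TMM factors in 1 model of the 3 groups, without a replicate block. The filter was filterByExpr with a minimum count of 10 and total of 15. CPM are counts scaled to library total times TMM factor. The GC trend is a loess curve (span 0.3) per library of log2 CPM, relative to the mean of the libraries, on the GC content of the longest transcript, and was removed as an offset. Alternatives were other size factors, no filter, DESeq2 1.42.0, limma-voom 3.58.1, a replicate block, fits of the compared groups only, and leaving out libraries. All 10 members are named. Of the other pathway genes, MTOR and the 3 called genes with the largest rise and fall per siRNA are named. Members, lists and rules were chosen with earlier results of these data known. The reads carried no molecular identifiers. The controls are shared by both comparisons with control.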

Additional observations from a re-analysis of the deposited data

Results flagged for a closer look

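The effects of the siRNAs differed from each other, by the test of the difference itself (edgeR, siRNA 2 against siRNA 1), in 5 of the 10 genes, beside 22.4% of all genes called and 38.6% without overlap. The log2 difference was -0.86 for EIF4EBP1, -0.50 for DDIT4, -0.50 for MLST8, -0.42 for AKT1S1 and 0.46 for TSC1. In each the libraries of the 2 siRNAs did not overlap, which describes the same counts as the call and adds no separate support. All 5 were called as counted, and MLST8 and AKT1S1 were not called with the GC trend removed.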

How the results depend on the processing

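Of 10 members, the number called with siRNA 1 was 0 as counted, 4 with DESeq2, 7 with the GC trend removed, 6 with the trend removed and the replicate block, 1 with only the compared groups, 1 with the replicate block (TSC2) and 7 without the 3 libraries with a GC trend. With siRNA 2 the 2 calls became 4 with DESeq2, 4 with the trend removed and the block, 1 without the filter, 4 with only the compared groups and 5 without the 3 libraries. For the average of both, the 0 calls became 1 with DESeq2, 5 with the trend removed, 3 with the block added and 7 without the 3 libraries. Over all tested genes the share called moved too. With siRNA 1, 7.08% became 14.1% with DESeq2 and 18.1% with trend removed and block. With siRNA 2, 13.8% became 20.2% with DESeq2 and 20.1% with trend removed and block. It became 5.63% without the filter and 23.3% with only the compared groups. Leaving out single libraries gave 0 to 4 calls with siRNA 1, beside 2.02% to 11.7% of all genes. With siRNA 2 it gave 0 to 4, beside 4.98% to 24.4%. Between the siRNAs it gave 3 to 7, beside 9.87% to 26.9%. For the average it gave 0 to 4, beside 1.45% to 16.8%. Of the other pathway genes, calls with siRNA 1 (12) became 26 with DESeq2, 39 with the trend removed, 28 with the block added, 5 without the filter and 37 without the 3 libraries. With siRNA 2 the 16 became 30, 28 with the block added, 28 with only the compared groups and 25 without the 3 libraries. Between the siRNAs the 33 became 16 with only the compared groups, while 22.4% of all genes became 11.6%. For the average the 9 became 15 with DESeq2, 29, 25 with the block added and 30 without the 3 libraries. Single libraries left out gave 0 to 20, 5 to 31, 14 to 38 and 1 to 23 calls. The shares of all genes beside them are those given for the members. With siRNA 1, 2.69% of all genes were called without the filter, 7.12% with only the compared groups and 7.58% with the block. For the average the shares were 13% with DESeq2, 17.7% with the trend removed and 16.1% with the block added.

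Directions turned in values that were not called as counted. With the trend removed, with or without the block, MLST8 was 0.08, AKT1S1 0.05 and TSC2 0.11 with siRNA 2, DDIT4 -0.03 with siRNA 1, RPTOR 0.18 between the siRNAs, and MLST8 0.13 and EIF4EBP1 0.04 for the average. Without the 3 libraries, DDIT4 was -0.09 with siRNA 1, TSC1 -0.08 and TSC2 0.02 with siRNA 2, RPTOR 0.11 between the siRNAs, and MLST8 0.06 and AKT1S1 0.00 for the average. Single libraries left out turned DDIT4 with siRNA 1 (-0.09 to 0.08), RICTOR with siRNA 2 (-0.17 to 0.01), RPTOR between the siRNAs (-0.15 to 0.02), and MLST8 (-0.10 to 0.01) and AKT1S1 (-0.03 to 0.05) for the average. The cause was not tested beyond the GC values above.

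Same-numbered libraries correlated between -0.0449 and 0.0962 in their deviations from the group means. Between the siRNAs the values were 0.0962, 0.0488 and 0.0213, and between control and either siRNA all were negative. With 3 libraries per group these values cannot decide whether the numbers pair libraries. Under the replicate block the MTOR call with siRNA 1 was lost (adjusted p = 0.064).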
